A study of Mus musculus with 2 samples.

Results

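The 10 neutrophil granule genes S100a8, S100a9, Retnlg, Chil3, Prtn3, Elane, Mpo, Camp, Ngp and Ltf were followed in regrowing mouse liver. Probes were taken whose name on the array was one of these symbols or an older synonym, which found 10 probes for 9 of the 10 genes, among 19377 named genes with a probe. Chil3 had 2 probes under its older name Chi3l3, and Elane had none. RNA came from livers of 3-month-old Wip1 knockout (Wip1 KO) mice and of wild-type (WT) mice, 36 h or 24 h after partial hepatectomy, surgery that takes out liver lobes and sets off regrowth of what is left. Wip1 is the phosphatase encoded by Ppm1d. Every liver had been operated on, so no unoperated liver was measured. Each time had 1 two-colour array, with Wip1 KO RNA in Cy5 and WT RNA in Cy3 and no exchange of dyes. Dye and genotype thus cannot be told apart in any comparison of Wip1 KO with WT RNA. The number of animals behind each RNA, their sex and the kind of knockout allele are not given in the sources used here.

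Neutrophils are short-lived white cells that ripen in bone marrow and carry antimicrobial proteins packed in granules. The genes for these proteins are switched on in sequence as the cell ripens. Primary granule proteins such as myeloperoxidase (Mpo) and the serine proteases proteinase 3 (Prtn3) and neutrophil elastase (Elane) are transcribed in early precursors, and secondary granule proteins such as lactoferrin (Ltf), cathelicidin (Camp) and neutrophilic granule protein (Ngp) in later ones. S100a8 and S100a9, which pair in the cytosol as calprotectin, and the secreted protein Retnlg are still abundant as RNA in mature circulating neutrophils. Chil3, a chitinase-like protein, is made by neutrophil precursors and also by some macrophages. Monocytes also carry S100a8 and S100a9. After partial hepatectomy, neutrophils and monocytes enter the liver from blood.

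Upstream sequences are shown for 4 genes that carry the results, since neighbouring or co-regulated genes can be compared by them. Each line holds the 250 bases before the start of the gene in RefSeq (GRCm38.p6), read 5′ to 3′ along the gene's strand. S100a8 lies at chr3:90668821-90669070 (plus strand), S100a9 at chr3:90695722-90695971 (minus strand), Chil3 at chr3:106167565-106167814 (minus strand) and Prtn3 at chr10:79879417-79879666 (plus strand). Capitals mark matches on either strand to GAGGAAGT, a form of the site of the myeloid factor PU.1, to TTNNGNAAT, a loose form of the site of C/EBP factors, and to TATAAA.
S100a8: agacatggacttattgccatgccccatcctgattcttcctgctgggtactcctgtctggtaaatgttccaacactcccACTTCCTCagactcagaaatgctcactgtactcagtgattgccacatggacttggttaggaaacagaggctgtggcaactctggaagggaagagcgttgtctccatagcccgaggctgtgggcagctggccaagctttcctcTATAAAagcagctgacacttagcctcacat
S100a9: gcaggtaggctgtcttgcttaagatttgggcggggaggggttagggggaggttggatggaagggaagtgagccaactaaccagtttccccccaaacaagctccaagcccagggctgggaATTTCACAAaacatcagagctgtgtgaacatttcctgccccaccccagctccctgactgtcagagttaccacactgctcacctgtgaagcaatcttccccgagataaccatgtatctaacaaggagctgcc
Chil3: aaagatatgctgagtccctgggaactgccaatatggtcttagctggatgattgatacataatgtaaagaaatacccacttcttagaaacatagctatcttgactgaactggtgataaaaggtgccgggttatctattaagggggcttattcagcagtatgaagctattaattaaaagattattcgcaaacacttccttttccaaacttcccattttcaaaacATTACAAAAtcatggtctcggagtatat
Prtn3: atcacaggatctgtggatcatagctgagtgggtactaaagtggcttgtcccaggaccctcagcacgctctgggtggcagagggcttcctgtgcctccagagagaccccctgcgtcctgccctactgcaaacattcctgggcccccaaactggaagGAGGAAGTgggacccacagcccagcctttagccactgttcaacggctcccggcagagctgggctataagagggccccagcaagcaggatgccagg
S100a8 and S100a9 were next to each other on chromosome 3 with 0 annotated genes between them, and Prtn3 and Elane likewise on chromosome 10. GAGGAAGT stood in the promoters of S100a8, Prtn3, Elane and Mpo, which is 4 of the 10 members, and in 2.44% of all 32851 promoters of this length. TTNNGNAAT stood in those of S100a9, Chil3, Ngp and Ltf, also 4 of 10, against 10.2% of all promoters, and TATAAA in that of S100a8, against 12.4%. The motifs and the window were picked after the promoters of the members had been read, so these counts are a description. A match is not shown to be a bound site.

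A spot counted as above background where foreground minus local background was over 2 SDs of that background. In Wip1 KO RNA 31.1% of gene probes passed at 36 h, against 36.8% in WT RNA, and 33.2% at 24 h, against 41.4% in WT RNA. Ppm1d itself was below background in all 4 RNAs, so the genotype rests on the labels. On the 36 h array genes that differ between male and female mouse liver stood far apart. Elovl3 had a log2 ratio of Wip1 KO over WT of 5.71, A1bg one of -6.40 on its probe M400000566, and the Y-linked gene Ddx3y one of 1.40. At 24 h the A1bg probe had a ratio of -2.05 and Ddx3y one of 0.09, while Elovl3 was below background in both RNAs. For 36 h over 24 h, that A1bg probe had a log2 ratio of 4.51 in WT and 0.16 in Wip1 KO liver. Ddx3y had 0.66 in WT and 1.98 in Wip1 KO liver. The part of these differences in the genotype ratios at 36 h and at 24 h, and in the comparisons between the times, was not tested. With 1 array per time there was no replicate, so no p-value could be given, and array and time cannot be told apart. The only spread at hand was technical. Repeated control spots had an SD of 0.154 in the log2 ratio at 36 h and 0.115 at 24 h, and different probes of 1 gene one of 0.257 at 36 h and 0.26 at 24 h. These SDs hold no animal-to-animal variation. The scanner files give the S100a9 spot at 24 h and the Prtn3 spot at 36 h a flag of -100, where the other spots of S100a8, S100a9, Retnlg, Prtn3 and the brighter Chil3 probe have 100, and what the flag means is not given in the sources used here.

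S100a8, S100a9, Retnlg, Chil3 and Prtn3 were above background in all 4 RNAs, and only for these 5 members was a ratio measured. Camp and Ngp were above background in WT liver at 36 h alone. Ltf and Mpo were not above background in any RNA. The members with a measured ratio thus include the RNAs known from mature neutrophils and 1 of the 2 primary granule genes with a probe. Of the 10 probes, 5 passed in Wip1 KO and 7 in WT RNA at 36 h, and 5 in Wip1 KO and 6 in WT RNA at 24 h. Local background was noisier in Wip1 KO spots, with a median SD of 55.6 against 46.8 in WT spots at 36 h, and 53.6 against 39.1 at 24 h. Wip1 KO RNA was in Cy5 at both times, so this difference goes with the dye as well as with the genotype.

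**Figure D1:**
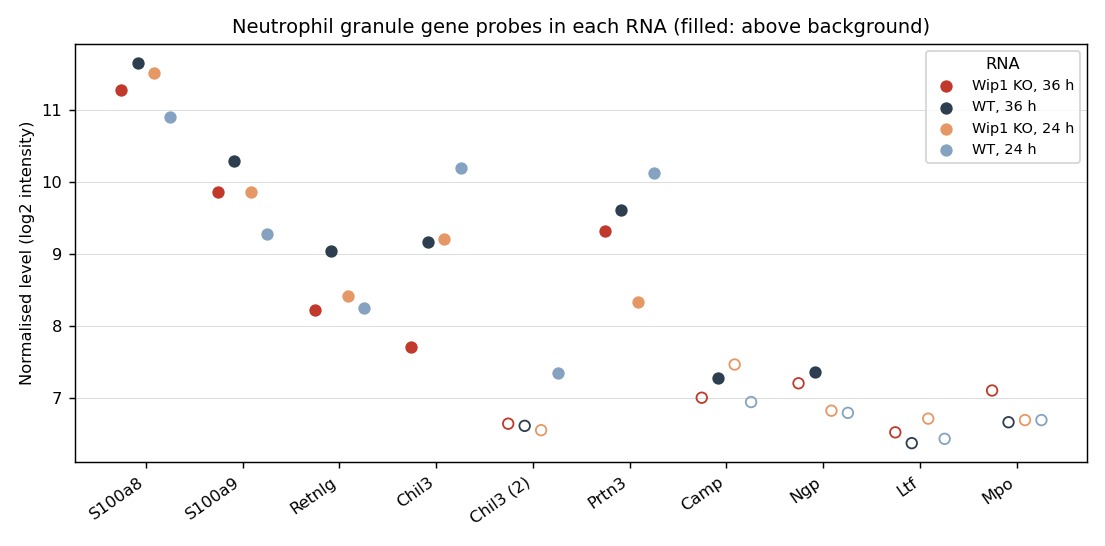
Normalised log2 intensity (vertical axis) of each of the 10 probes in the 4 RNAs, 1 point per RNA, filled where the spot was above background and open where it was not. S100a8 had its highest level, 11.65, in WT liver at 36 h, and Prtn3 its highest, 10.13, in WT liver at 24 h; probes differ in brightness, so levels compare within a probe only, and Chil3 (2) is the second Chil3 probe.

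At 36 h all 5 measured members were lower in Wip1 KO than in WT liver, with a median log2 ratio of -0.43, against 0.03 over all 7435 genes measured. Of those genes, 3423 were lower. Chil3 was 2.76-fold lower and was the only member at least 2-fold apart, where 4.72% of all genes measured were at least 2-fold apart with 2.65% higher and 2.07% lower. At 24 h S100a8 and S100a9 were higher in Wip1 KO than in WT liver, Chil3 and Prtn3 were lower, and Retnlg was near equal. Prtn3 was 3.45-fold lower and was the only member at least 2-fold apart at 24 h, where 2.28% of all 7994 genes measured were that far apart, 1.51% higher and 0.763% lower. The median over the members at 24 h was 0.17, against 0.01 over all genes. In bulk tissue, fewer neutrophils and less of these RNAs per cell cannot be told apart.

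S100a8 and S100a9, the calprotectin pair, kept close to each other in every comparison. The S100a8 spot had a foreground intensity of 2281 in Wip1 KO and 3359 in WT liver at 36 h, and of 2699.5 in Wip1 KO and 1980 in WT liver at 24 h. After normalisation its log2 level was 11.28 in Wip1 KO and 11.65 in WT liver at 36 h, and 11.51 in Wip1 KO and 10.90 in WT liver at 24 h. WT liver at 36 h was thus brightest and WT liver at 24 h dimmest, with both Wip1 KO livers between them. The log2 ratio of Wip1 KO over WT was -0.37 at 36 h and 0.61 at 24 h. S100a8 stood on opposite sides of WT at the 2 times, by 1.29-fold lower in Wip1 KO liver at 36 h and 1.53-fold higher at 24 h. The ratio at 36 h depended on the normalisation, with -0.66 under print-tip loess and -0.69 as the log2 value of the ratio in the authors' deposited table. Both ratios were larger than the SD between probes of a gene and short of 2-fold.

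The S100a9 spot had intensities of 786 in Wip1 KO and 1267 in WT liver at 36 h, and of 810 in Wip1 KO and 643 in WT liver at 24 h. Its normalised level was 9.86 in Wip1 KO and 10.29 in WT liver at 36 h, and 9.86 in Wip1 KO and 9.28 in WT liver at 24 h. The order of the RNAs was as for its partner, with WT liver at both ends and the Wip1 KO levels alike. The log2 ratio of Wip1 KO over WT was -0.43 at 36 h and 0.58 at 24 h, or 1.34-fold lower and 1.5-fold higher. At 24 h, 93.9% of all genes measured had a lower ratio than S100a8 and 93.2% a lower one than S100a9.

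Retnlg, a resistin-like protein of mature neutrophils, was lower in Wip1 KO liver at 36 h and near equal at 24 h. Its spot had 192 in Wip1 KO and 497 in WT liver at 36 h, and 252 in Wip1 KO and 293 in WT liver at 24 h. The normalised level was 8.22 in Wip1 KO and 9.05 in WT liver at 36 h, and 8.42 in Wip1 KO and 8.25 in WT liver at 24 h. WT liver at 36 h stood above the other RNAs, which lay close together. The log2 ratio was -0.83 at 36 h, 1.78-fold lower in Wip1 KO, with 3.05% of genes lower still. At 24 h it was 0.17, which is within the SD between probes, and 0.03 under median centring.

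Chil3 was lower in Wip1 KO liver at both times. Its brighter probe, M300012869, had 112 in Wip1 KO and 558 in WT liver at 36 h, and 486 in Wip1 KO and 1234 in WT liver at 24 h. The normalised level was 7.71 in Wip1 KO and 9.17 in WT liver at 36 h, and 9.21 in Wip1 KO and 10.20 in WT liver at 24 h. Wip1 KO liver was below WT liver at each time, and each genotype was lower at 36 h than at 24 h. The log2 ratio of Wip1 KO over WT was -1.47 at 36 h and -0.99 at 24 h, with 0.847% and 0.763% of genes lower still. The Wip1 KO spot at 36 h lay 2.55 background SDs above its background, so this ratio has a dim channel and is lost when 3 SDs are asked for. The second probe, M400010311, was above background in WT liver at 24 h alone. It had 13 in Wip1 KO and 62 in WT liver at 36 h, and 12 in Wip1 KO and 132 in WT liver at 24 h. From it Chil3 was an estimated 1.53-fold lower in Wip1 KO than in WT liver at 24 h. This estimate sets the bright level against the higher of the dim spot's own level and the lowest level above background in its channel. It is not a strict bound, since it leaves out the noise of the dim spot. That spot's background SD was 73.7. Chil4, a close relative of Chil3, was above background on its probe M400008416 in WT liver alone at both times. Whether RNA of the relative binds the Chil3 probes was not tested.

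Prtn3, the protease of primary granules, was much lower in Wip1 KO liver at 24 h and close to WT at 36 h. Its spot had 513.5 in Wip1 KO and 767.5 in WT liver at 36 h, and 232 in Wip1 KO and 1172 in WT liver at 24 h. The normalised level was 9.32 in Wip1 KO and 9.61 in WT liver at 36 h, and 8.34 in Wip1 KO and 10.13 in WT liver at 24 h. The Wip1 KO liver at 24 h stood apart below the other 3 RNAs. The log2 ratio was -0.28 at 36 h, and -1.79 at 24 h, where 0.15% of genes were lower still. In the authors' deposited table the linear ratio of Wip1 KO over WT was 0.769 at 36 h and 0.221 at 24 h.

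The other primary granule genes gave no ratio beside that of Prtn3. Mpo, the peroxidase, had 39 in Wip1 KO and 92 in WT liver at 36 h, and 18 in Wip1 KO and 67 in WT liver at 24 h, in each case less than 1 background SD above background. Ctsg, a protease stored with Prtn3 and Elane, was likewise below background in all 4 RNAs. Elane, the nearest neighbour of Prtn3 on the chromosome, had no probe. Prtn3 was therefore the sole primary granule gene of the members with a signal, and its pattern has no second gene of its class beside it.

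The secondary granule genes were at the edge of detection. Camp, the cathelicidin, had 42 in Wip1 KO and 137 in WT liver at 36 h, and 93 in Wip1 KO and 96 in WT liver at 24 h. It was above background in WT liver at 36 h, by 2.41 SDs. By the kind of estimate used for the second Chil3 probe, Camp was 1.21-fold lower in Wip1 KO than in WT liver at 36 h. The Wip1 KO spot there had a background SD of 76. Ngp, a cystatin-like granule protein, had 49 in Wip1 KO and 138 in WT liver at 36 h, and 28 in Wip1 KO and 85 in WT liver at 24 h. It was above background in the same RNA, by 2.12 SDs. The same estimate put Ngp 1.12-fold lower in Wip1 KO than in WT liver at 36 h, with a background SD of 71.2 in the Wip1 KO spot. Ltf, the iron-binding lactoferrin, had 7 in Wip1 KO and 72 in WT liver at 36 h, and 19 in Wip1 KO and 58 in WT liver at 24 h, and was below background throughout. Which RNA passed depended on the noise of its background as well as on its signal. The normalised level of Camp was 7.47 in Wip1 KO liver at 24 h, above its 7.29 in WT liver at 36 h, but the background SD was 72.8 in Wip1 KO liver at 24 h and 40.9 in WT liver at 36 h. The estimates at 36 h are within the SD between probes for Ngp and close to it for Camp, and equal or reversed levels remain possible.

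**Figure D2:**
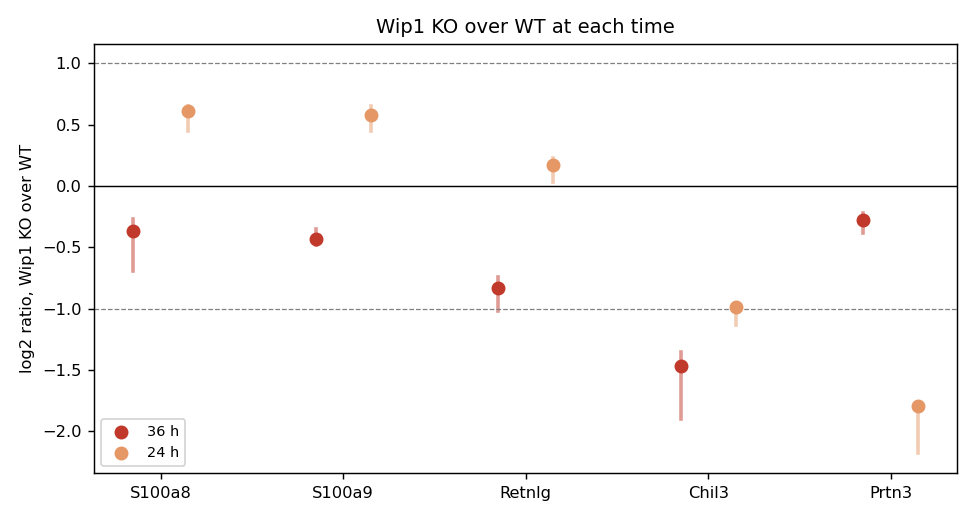
Log2 ratio of Wip1 KO over WT (vertical axis) of the 5 measured members at 36 h and at 24 h; points are the values reported, vertical lines the range over the alternative settings, and dashed lines mark 2-fold. S100a8 and S100a9 lie below 0 at 36 h and above 0 at 24 h, Retnlg lies at -0.83 at 36 h and near 0, at 0.17, at 24 h, Chil3 lies below 0 at both, and Prtn3 is at -1.79 at 24 h.

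Between the times, WT liver showed more S100a8, S100a9 and Retnlg RNA at 36 h than at 24 h, while their ratios in Wip1 KO liver were smaller in size. In WT liver the log2 ratio of 36 h over 24 h was 0.75 for S100a8, 1.01 for S100a9 and 0.80 for Retnlg. Of all 8560 genes measured in WT liver, 97.1%, 98.7% and 97.6% had lower ratios than S100a8, S100a9 and Retnlg. In Wip1 KO liver the ratios were -0.23 for S100a8, -0.00 for S100a9 and -0.20 for Retnlg, with 25.5%, 44.6% and 27.7% of genes lower still. The SD between probes was taken from genotype ratios within an array, so no spread was at hand for ratios between the times. S100a9 was at least 2-fold higher and Chil3 at least 2-fold lower in WT liver, which is 2 of the 5 members, where 2.93% of all genes were at least 2-fold apart, 1.38% higher and 1.55% lower. The members' median was 0.75 in WT liver, against 0.03 over all genes. Genes that differ between male and female liver also changed between the times, and their part here was not tested.

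Chil3 was lower at 36 h than at 24 h in both genotypes, by 2.83-fold in Wip1 KO liver and 2.04-fold in WT liver. Its second probe gave an estimate of 1.46-fold lower at 36 h in WT liver, with the 36 h spot below background. In Wip1 KO liver Chil3 was the 1 member of 5 at least 2-fold apart between the times, where 6.13% of all 7091 genes were, 2.52% higher and 3.61% lower. The median of the members there was -0.20, against 0.05 over all genes. Prtn3 ran in opposite directions, with a log2 ratio of 36 h over 24 h of 0.98 in Wip1 KO liver, 1.98-fold higher, and of -0.52 in WT liver, 1.44-fold lower. The estimates for Camp and Ngp were 1.26-fold and 1.48-fold higher in WT liver at 36 h than at 24 h, with the 24 h spots below background.

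**Figure D3:**
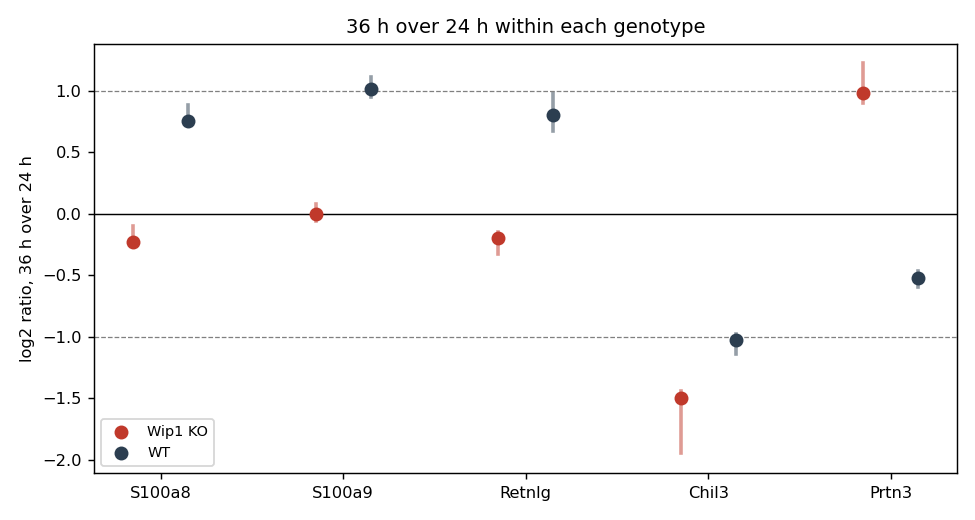
Log2 ratio of 36 h over 24 h (vertical axis) of the 5 measured members within Wip1 KO and within WT liver; points are the values reported, vertical lines the range over the alternative settings, and dashed lines mark 2-fold. S100a8, S100a9 and Retnlg lie at 0.75 to 1.01 in WT and at -0.23 to -0.00 in Wip1 KO liver, whereas Prtn3 lies at 0.98 in Wip1 KO and at -0.52 in WT liver.

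The genotype ratio at 36 h minus that at 24 h had another sign for Prtn3 than for the other measured members. It was -0.98 for S100a8, -1.01 for S100a9 and -0.997 for Retnlg on the log2 scale, and -0.47 for Chil3, but 1.51 for Prtn3. Of the 7003 genes measured at both times, 4.33%, 4.13% and 4.2% lay below S100a8, S100a9 and Retnlg, 14.3% below Chil3 and 98.7% below Prtn3. In all, 8.24% of genes had ratios at least 2-fold apart between the times, 4.06% higher and 4.18% lower at 36 h, a size that S100a9 and Prtn3 reached. Of the 5 members, 3 were below 0 at 36 h and above 0 at 24 h, Retnlg by only 0.17 at 24 h, as were 21.7% of all genes. This difference compares 2 arrays and was not tested.

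Over all genes measured, 3423 of 7435 were lower in Wip1 KO liver at 36 h and 3849 of 7994 at 24 h. The counts of genes higher or lower in the lists below stand beside these. Of 20 other neutrophil granule proteins, 12 were measured at 36 h, of which 7 were lower in Wip1 KO liver, and 13 at 24 h, of which 5 were lower. Their medians were -0.38 at 36 h and 0.06 at 24 h, the one at 24 h turning to -0.07 under median centring. Srgn, the proteoglycan that packs granule proteins, had a ratio of -1.58 at 36 h and 0.84 at 24 h, and in WT liver it was 2.69-fold higher at 36 h than at 24 h. Lyz2, a lysozyme shared with macrophages, had -0.56 at 36 h and 0.82 at 24 h. Lcn2 and Hp, granule proteins that hepatocytes also secrete, went the other way at 36 h, with 0.98 and 1.07. Lcn2 had -0.54 and Hp 0.50 at 24 h. Cybb, a subunit of the phagocyte oxidase, had 0.02 at 36 h and -0.69 at 24 h. Ctsc, the protease that activates granule proteases, had 0.10 at 36 h and -0.46 at 24 h. Of the 12 genes of this list measured at both times, 6 were below 0 at 36 h and above 0 at 24 h, and 4 the reverse. Over all 7003 genes measured at both times these counts were 1520 and 1766.

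Of 24 surface receptors and oxidase subunits of neutrophils, 21 had a probe, 8 were above background in all 4 RNAs and 7 in none, among them the receptor of G-CSF, Csf3r, and the integrin Itgam. Ly6g, the usual neutrophil surface marker, was above background in all 4, with ratios of -0.47 at 36 h and -0.36 at 24 h, so it was not higher in Wip1 KO liver at 24 h as S100a8 was. Ly6g belongs to a family of similar genes, and binding of their RNA to its probe was not tested. Fpr2, a receptor of formylated peptides, was 2.46-fold lower in Wip1 KO liver at 36 h and had a log2 ratio of -0.49 at 24 h. Clec4d, a lectin receptor, was 2.08-fold higher in Wip1 KO liver at 24 h. At 36 h Clec4d was above background in WT and not in Wip1 KO liver, so no ratio was measured. The medians of this list were -0.22 at 36 h, with 6 of 8 measured genes lower, and 0.01 at 24 h, with 4 of 10 lower. At 24 h the sign of this median turned with the scaling, to -0.13 under median centring and -0.08 under print-tip loess, with 6 of 10 lower in each.

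Attractants and adhesion molecules of neutrophils had a median of 0.73 at 24 h, with 6 of 7 measured genes above 0, among them Icam1 at 0.00. The count was 4 of 7 under median centring and 5 of 7 under print-tip loess, with medians of 0.60 and 0.75. The chemokine Cxcl3 was 3.14-fold, the adhesion molecule Vcam1 2.82-fold and the cytokine Il1b 2.16-fold higher in Wip1 KO liver at 24 h. At 36 h 4 of 5 measured genes were lower in Wip1 KO liver, with a median of -0.50. Cxcl3, Ccl3, Il6 and Ltb4r1 were above background in WT and not in Wip1 KO liver at 36 h, and Il1a the reverse. No ratio was measured for them at that time. In WT liver Cxcl3 was 4.52-fold and Il1b 2.97-fold higher at 36 h than at 24 h. Of 18 regulators of myeloid precursors and granule genes, 6 were measured at each time, with medians of 0.22 at 36 h and 0.15 at 24 h. Higher in Wip1 KO liver were 5 of 6 at 36 h and 4 of 6 at 24 h, the latter 3 of 6 under median centring or print-tip loess. Cebpa was 2.03-fold higher in Wip1 KO liver at 36 h, the only gene of this list at least 2-fold apart there. At 24 h Cebpa was not above background in Wip1 KO liver, so no ratio was measured. Spi1, which encodes PU.1, had ratios of 0.29 at 36 h and -0.08 at 24 h, and Cebpe, a regulator of secondary granule genes, 0.11 and 0.28 at the same times.

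Markers of other cells also differed between the genotypes. Of macrophage and Kupffer cell markers, 13 of 16 measured were higher in Wip1 KO liver at 36 h and 14 of 18 lower at 24 h. The list holds Arg1, which hepatocytes express strongly, and without it, a choice made after seeing the data, 12 of 15 were higher at 36 h and 14 of 17 lower at 24 h. The summed level of the 14 other markers above background in all 4 RNAs was 45417 in Wip1 KO and 40900 in WT liver at 36 h, and 26794 in Wip1 KO and 39649 in WT liver at 24 h. Such a sum adds different probes, so the brightest weigh most. Of the 15 markers measured at both times, 0 were below 0 at 36 h and above 0 at 24 h, the signs of S100a8 and S100a9. Ccr2, a chemokine receptor of monocytes, is not among these 15. It had a ratio of 0.95 at 24 h, on the side of S100a8, and at 36 h it was above background in WT and not in Wip1 KO liver. Cd14, a receptor of monocytes and macrophages, had 0.33 at 24 h and was not above background in either genotype at 36 h. The part of monocytes in the values of S100a8 and S100a9 was not tested. Of the erythroid and platelet markers, 3 of 4 measured genes had those signs. The platelet chemokine Pf4 had ratios of -1.96 at 36 h and 2.34 at 24 h, and the globin Hbb-b1 -0.52 and 1.25. Alas2, the heme synthesis enzyme of red cell precursors, was above 0 at both times, with 1.76 at 36 h, 3.38-fold higher in Wip1 KO liver, and 0.35 at 24 h. The summed level of these 4 genes was 26536 in Wip1 KO and 35232 in WT liver at 36 h, and 41504 in Wip1 KO and 19928 in WT liver at 24 h. The bright globin probes set most of this sum. In Wip1 KO liver at 36 h the log2 level was 13.69 for Hba-a1 and 13.36 for Hbb-b1, against 11.36 for Alas2 and 7.47 for Pf4. Slc4a1, Itga2b and Gp9 of that list were below background in all 4 RNAs. The part of blood left in the tissue in the values of the members was not tested. All 14 measured hepatocyte markers were higher in Wip1 KO liver at 36 h, 7 of them by at least 2-fold, and 12 of 14 at 24 h, with a median of 0.44, and their part was not tested either.

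**Figure D4:**
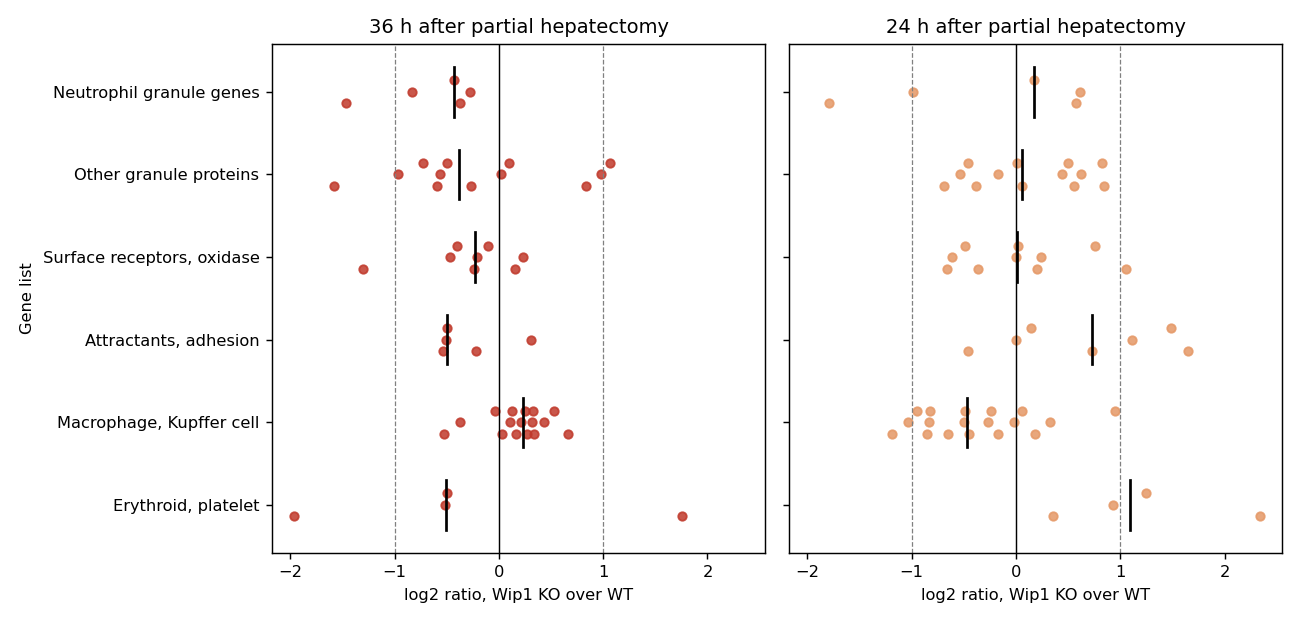
Log2 ratio of Wip1 KO over WT (horizontal axis) of each measured gene in 6 lists at 36 h (left) and 24 h (right); points are genes, black bars list medians, and dashed lines mark 2-fold. The median of the neutrophil granule genes is -0.43 at 36 h and 0.17 at 24 h, while that of macrophage and Kupffer cell markers is 0.23 at 36 h and -0.47 at 24 h.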

How the data were processed

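Each of 2 arrays, 1 per time, carried Wip1 KO RNA in Cy5 (635 nm) and WT RNA in Cy3 (532 nm), per the labels. The intensity values are the authors' raw median foreground and local background of each spot, per the file headers, with no normalisation. The authors also deposited a table of linear ratios (Wip1 KO over WT) normalised by a method not given in the sources used here. It numbers its rows without probe names. Spot order did not match, so several row orders were tried and the one kept, by falling probe ID after the control genes, was the one whose ratios followed the scanner values (correlation 0.974 at 36 h and 0.971 at 24 h, and 0.0432 and 0.026 with the rows moved by 1). The table was used as an alternative only.

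Median foreground was corrected by normexp with offset 50, and the log2 ratios of an array were normalised by loess (control spots had weight 0), in limma 3.58.1 (R 4.3.3). Levels for the time comparisons were then made comparable by Aquantile. A gene was measured where both channels were above background, and called at 2-fold. Its value is that of its brightest probe. Counting used Python 3.11.15 with pandas 2.3.3 and numpy 2.4.6. The ratio step was tested on simulated data with changes put into bright spots only. Dim spots, such as that of Chil3 in Wip1 KO liver at 36 h, were not covered.

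The members and all gene lists were chosen with earlier results of these data known. From each list up to 3 genes at least 2-fold apart in a comparison were picked. Not all of these are named, and not all their values in other comparisons are given. Lcn2, Ly6g, Csf3r, Itgam, Ctsg, Chil4, Elovl3, A1bg, Ddx3y, Spi1 and Cebpe were chosen after their values were seen. So were Ccr2, Cd14, Arg1, Cybb, Ctsc, Icam1, Ccl3, Il6, Ltb4r1, Il1a, Hba-a1 and the platelet and erythroid markers below background. The alternatives were other background corrections, normalisations, filters, probe summaries and the deposited ratio. The files name no genome build, and promoter positions are those of RefSeq on GRCm38.p6.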

Additional observations from a re-analysis of the deposited data

Results flagged for a closer look

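For 4 members the genotype ratio at 36 h and that at 24 h stood apart, with 1 array at each time, so the difference was not tested. The log2 ratio of Wip1 KO over WT at 36 h minus that at 24 h was -0.98 for S100a8, -1.01 for S100a9 and -0.997 for Retnlg. S100a8 and S100a9 were lower in Wip1 KO than in WT liver at 36 h and higher at 24 h, while Retnlg was lower at 36 h and at 24 h had a ratio of 0.17, within the SD between probes. For Prtn3 the same difference was 1.51. Prtn3 was lower in Wip1 KO liver at both times, and it was listed because 36 h over 24 h was above 0 in Wip1 KO liver, at 0.98, and below 0 in WT liver, at -0.52.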

How the results depend on the processing

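No paired analysis was possible because each time had 1 array, and for the same reason no replicate could be left out. Over 10 alternatives, S100a8, S100a9, Retnlg and Prtn3 kept the sign of their genotype ratio at both times, and Chil3 did so in all 9 that gave it a value at 36 h and all 10 at 24 h. The filter at 3 SDs, no filter on dim spots and the mean over probes could not move S100a8, S100a9, Retnlg or Prtn3. Each of these has 1 probe, which passed at 3 SDs in every RNA, so those alternatives say nothing on how firm their signs are. S100a8 at 36 h, -0.37, was -0.66 by print-tip loess. Chil3 at 36 h reached -1.90 with plain subtraction, against -1.47, and Prtn3 at 24 h -2.18 in the authors' deposited table, against -1.79. Retnlg at 24 h was 0.03 under median centring, which put the median of all genes at -0.11 at 24 h against 0.01 by loess. Chil3 at 24 h was at least 2-fold lower in 5 alternatives. The members at least 2-fold apart at 36 h were 2 with plain background subtraction, where Retnlg joined, and 0 with a filter at 3 SDs, which drops Chil3. At 24 h they were 2 with plain subtraction, no background correction, offset 16, median centring and the authors' deposited table. All genes at least 2-fold apart at 24 h were 319 with plain subtraction, 298 with no correction and 305 in the authors' deposited table, against 182. Median centring turned their split from 121 higher and 61 lower to 83 higher and 89 lower. In Wip1 KO liver the members at least 2-fold apart between times were 2 with quantile scaling, equal channel medians and plain subtraction, where Prtn3 joined, and all genes were 655 with plain subtraction and 804 with no filter on dim spots, against 435. Equal channel medians gave 244 higher and 210 lower there, against 179 and 256. S100a9 in Wip1 KO liver ranged from -0.06 to 0.08. In WT liver the members were 1 with no step between arrays, where S100a9 dropped out, and 1 with equal channel medians, where Chil3 did, and all genes were 467 with plain subtraction, against 251. The spread used to judge whether single values moved, the SD between probes of a gene, was chosen after seeing the data. The causes were not tested. Low signal limited Camp, Ngp, Ltf, Mpo and the second Chil3 probe.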
